A study of Mus musculus with 24 samples.

Results

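The Cyp4a genes encode cytochrome P450 enzymes that hydroxylate the last carbon of fatty acids, the omega position. The 6 genes Cyp4a10, Cyp4a14, Cyp4a12a, Cyp4a12b, Cyp4a31 and Cyp4a32 were taken by symbol from a table of 13686 genes counted in mouse liver. All 6 were among the 11971 genes that passed the filter on low counts, so no member was lost before testing. The livers came from male wild-type (WT) C57BL/6 mice, an inbred laboratory strain, after 6 weeks on a diet enriched in 1 of 3 oils, or on chow. The oils were from cottonseed (CSO), olive (OO) and safflower (SFO). The study set out to compare a cottonseed oil diet with other high-fat diets. The count table holds 6 CSO, 6 OO, 5 SFO and 6 chow libraries, and the labels do not give the fatty acid make-up of the oils, the age of the mice or the hour at which livers were taken. The labels say of replicates only that they are different samples, and the p-values below therefore reflect their spread, part of which may be technical.

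Omega-hydroxylation is a side route of fatty acid breakdown in liver. The hydroxylated acid is oxidised by alcohol and aldehyde dehydrogenases to a dicarboxylic acid, which peroxisomes shorten, and the P450 enzyme draws its electrons from cytochrome P450 oxidoreductase. Fatty acids activate the nuclear receptor PPAR alpha, and in mouse liver Cyp4a10 and Cyp4a14 are classical genes induced by it. Cyp4a12a is known in the mouse as a male-biased enzyme that makes 20-HETE, a vasoactive lipid, from arachidonic acid, and Cyp4a12b is its close copy. Cyp4a31 and Cyp4a32 are close copies of Cyp4a10.

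The members lie together on mouse chromosome 4, in the order Cyp4a12a, Cyp4a12b, Cyp4a14, Cyp4a10, Cyp4a31, Cyp4a32. Their coding sequences are shown for 2 reasons: they give the kinship of the members, and close copies can be mixed up when reads are counted. The sequences come from GENCODE M21 transcripts (build GRCm38), a different build from the mm39 build of the counts, so positions are given only within the coding sequence, from 1 at the A of the start codon. The first stretch, 60 coding bases, covers the loop that holds the heme iron in P450 enzymes, and the codon of the heme-binding cysteine is at bases 37 to 39 of the stretch. Capitals mark bases that differ from Cyp4a10. Cyp4a31 and Cyp4a32 have exactly the sequence of Cyp4a10 here (0 differences) and Cyp4a12b has that of Cyp4a12a.
Cyp4a10: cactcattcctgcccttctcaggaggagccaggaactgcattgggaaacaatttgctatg
Cyp4a14: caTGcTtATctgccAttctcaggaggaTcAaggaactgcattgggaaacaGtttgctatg
Cyp4a12a: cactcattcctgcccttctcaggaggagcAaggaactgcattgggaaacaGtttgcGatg
Over this stretch Cyp4a14 differed from Cyp4a10 at 9 of 60 bases and Cyp4a12a at 3 of 60. Over the whole coding sequence, identity to Cyp4a10 was 97.2% for Cyp4a32, 96.6% for Cyp4a31, 80.3% for Cyp4a12a and 76.8% for Cyp4a14, and Cyp4a12a and Cyp4a12b were 98.5% identical.

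The close copies are told apart by single bases, and the stretch of 60 coding bases with the most differences is shown for each set, with the bases that differ within the set in capitals. For the Cyp4a10 set it spans coding bases 200 to 259 and holds 9 of the 77 differing positions among 1530.
Cyp4a10: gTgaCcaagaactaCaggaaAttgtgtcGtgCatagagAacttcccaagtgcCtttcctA
Cyp4a31: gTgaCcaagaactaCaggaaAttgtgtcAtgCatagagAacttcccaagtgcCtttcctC
Cyp4a32: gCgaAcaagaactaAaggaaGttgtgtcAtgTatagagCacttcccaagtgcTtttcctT
For Cyp4a12a and Cyp4a12b it spans coding bases 624 to 683 and holds 4 of the 23 differing positions among 1527.
Cyp4a12a: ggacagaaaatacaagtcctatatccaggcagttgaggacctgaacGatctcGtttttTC
Cyp4a12b: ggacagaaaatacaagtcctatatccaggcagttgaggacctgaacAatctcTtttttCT
The libraries were made with the QuantSeq 3′ kit, which yields about 1 tag per transcript near its 3′ end, so these coding stretches are mostly not what was read. In the last 500 bases of the transcript models, 0% of the 75-base windows of Cyp4a14 and 0.469% of those of Cyp4a10 and of Cyp4a31 occurred in another gene, against 32.6% for Cyp4a12a and for Cyp4a12b. The window length is a choice made here, since the sources used here name no read length. The separate counts of Cyp4a12a and Cyp4a12b are therefore less certain than that of Cyp4a14. The model of Cyp4a32 ends at its stop codon, with 0 bases after it, so its 3′ end could not be compared in this way, and its separate count is uncertain too. Of the windows in its last 500 bases, which are coding, 55.2% occurred in Cyp4a10 or Cyp4a31. Sequence that Cyp4a10 or Cyp4a31 share with the missing end of Cyp4a32 could not be found. Their low shares therefore do not show that their counts are separate.

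Library totals ran from 5428649 to 14930305 counts. Levels are CPM, which is counts put on 1 scale per library with TMM factors. Since a 3′ tag does not scale with transcript length, levels can be set side by side between genes. The uncertain separate counts of the members other than Cyp4a14 limit this. Markers of hepatocytes, led by Alb, summed to between 97334 and 169839 CPM in every library (7 of 8 markers present). Skeletal muscle markers (10 of 10 present) summed to 2.67 to 1179 CPM in CSO, 0.534 to 16.2 CPM in OO, 0.359 to 66.7 CPM in SFO and 9.84 to 2682 CPM in chow. Acta1, the skeletal muscle actin, was above 100 CPM in 4 libraries, CSO 1 and chow 3, 4 and 5. Adipocyte markers (4 of 6 present) summed to 27.3 to 168 CPM in CSO, 2.52 to 75.7 CPM in OO, 0.980 to 25.4 CPM in SFO and 4.01 to 83.8 CPM in chow. Most of the CSO sum was 1 gene, Cfd, with a mean of 74.8 CPM in CSO and 8.97 CPM in chow. Fabp4 went the other way (5.11 CPM in CSO, 10.1 CPM in chow), and 2 of the markers were at 0 in every CSO, OO and SFO library. Only 2 adipocyte markers were tested, and 0 were called in CSO against chow. Their log2 fold changes were wide, at 3.05 ± 1.05 for Cfd (SE) and -0.98 ± 0.89 for Fabp4. Whether CSO livers held more adipocyte RNA was not tested. A clock score, the log2 ratio of Ciart, Dbp, Per2, Per3 and Tef over Arntl, Clock, Nfil3 and Npas2, was 3.92 ± 0.64 in CSO (SD, n = 6), 1.21 ± 1.54 in OO (n = 6), 1.71 ± 2.37 in SFO (n = 5) and 1.48 ± 1.76 in chow (n = 6). The score was highest and least spread in CSO. Results with the score as a covariate and without the 4 Acta1 libraries are given below where they differ, and the part of the adipocyte markers in the results was not tested.

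Cyp4a transcripts were abundant in CSO and chow livers and scarcer in OO and SFO livers. The summed level of the 6 genes was 1427 ± 280 CPM in CSO (SD, n = 6), 483 ± 158 CPM in OO (n = 6), 365 ± 70.1 CPM in SFO (n = 5) and 1183 ± 136 CPM in chow (n = 6). No OO or SFO library reached the lowest CSO library (953 CPM) or the lowest chow library (1012 CPM), since the highest were 655 CPM in OO and 473 CPM in SFO. Each sum is a description only, since 4 genes carry nearly all of it. In whole-tissue RNA, fewer cells of a type and less RNA per cell cannot be told apart.

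Cyp4a14, one of the PPAR alpha-induced genes, had the widest range. It was at 217, 636 and 888 CPM in CSO livers (lowest, median and highest of 6) and at 3.22, 59.3 and 180.1 CPM in OO livers. The 5 SFO livers had 3.10, 8.82, 17.6, 27.2 and 31.8 CPM, against 284, 356 and 530.5 CPM (lowest, median and highest of 6) in chow livers. Every SFO and every OO library lay below every chow and every CSO library. Among the 6 OO livers alone the highest level was 55.9 times the lowest, against 1.87 times among the chow livers. The order of means was CSO (611 ± 261 CPM), chow (378 ± 90.0), OO (76.6 ± 72.1) and SFO (17.7 ± 12.1). None of the neighbours in that order (CSO and chow, OO and chow, SFO and OO) passed the test of their difference.

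Cyp4a10, the other gene of the family known for its response to PPAR alpha, had the same order of means over a smaller range. CSO livers had 190.2, 237 and 297 CPM (lowest, median and highest of 6), and OO livers 10.1, 104 and 218 CPM. SFO livers were at 15.7, 29.4, 36.2, 41.8 and 62.2 CPM, against 151, 199 and 282 CPM in chow livers. All SFO livers were below all CSO and chow livers. The OO livers were split widely, with 2 libraries below the SFO median (OO 1 at 10.1 CPM and OO 5 at 29.4 CPM) and 2 within the chow range (OO 2 at 165 CPM and OO 3 at 218 CPM). The mean was 239 ± 45.0 CPM in CSO, 105 ± 80.2 in OO, 37.0 ± 17.1 in SFO and 208 ± 51.4 in chow, and again no neighbours in the order passed the test.

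Cyp4a12a, the male-biased arachidonic acid omega-hydroxylase, was the member with the highest mean in OO, SFO and chow livers. It was at 348, 388 and 555 CPM in CSO livers and at 127, 182 and 397 CPM in OO livers. SFO livers had 190.2, 191, 218, 247 and 281 CPM, against 344, 439 and 691 CPM in chow livers. One OO liver, OO 1 with 397 CPM, stood among the chow livers, and the other 5 OO livers were at or below 223 CPM. The means were 417 ± 82.7 CPM in CSO, 207 ± 99.96 in OO, 225 ± 38.8 in SFO and 464 ± 121 in chow, so that chow was first in this order and CSO second, unlike for Cyp4a14 and Cyp4a10. Of the neighbours in this order, CSO and SFO passed the test of their difference, and CSO and chow, and SFO and OO, did not.

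Cyp4a12b, its close copy, was at 109, 114 and 153 CPM in CSO livers and at 41.2, 67.3 and 81.5 CPM in OO livers. The SFO livers had 41.8, 43.3, 43.4, 45.8 and 83.3 CPM, against 82.3, 93.1 and 128 CPM in chow livers. Every OO liver was below every chow liver, and 4 of the 5 SFO livers were, while SFO 1 at 83.3 CPM was within the chow range. The means were 125 ± 20.9 CPM in CSO, 64.7 ± 15.8 in OO, 51.5 ± 17.8 in SFO and 99.1 ± 18.8 in chow, and no neighbours in their order (CSO, chow, OO, SFO) passed the test. For each Cyp4a12a tag there were 0.313 ± 0.096 Cyp4a12b tags in CSO, 0.353 ± 0.155 in OO, 0.226 ± 0.044 in SFO and 0.220 ± 0.043 in chow, a ratio that was not tested and that rests on counts that share sequence.

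The remaining copies of Cyp4a10 were far lower. Cyp4a32 was at 19.1, 28.3 and 35.8 CPM in CSO livers, at 10.5, 27.8 and 50.9 CPM in OO livers and at 9.47, 15.8, 24.6, 27.1 and 27.5 CPM in SFO livers, against 17.6, 21.6 and 41.2 CPM in chow livers. All 4 diets overlapped for Cyp4a32, and no pair of diets passed the test. Cyp4a31 was at 3.41, 7.61 and 13.1 CPM in CSO livers and at 0, 0.855 and 5.20 CPM in OO livers. SFO livers had 1.002, 3.38, 4.74, 25.0 and 31.2 CPM of Cyp4a31, against 3.16, 8.30 and 14.1 CPM in chow livers. The count of Cyp4a31 was 0 in OO 3, which allows a level of up to 0.415 CPM (3 counts in that library, counting error only). In SFO 1 and SFO 2 it was above every other library in the table, while the other 3 SFO livers lay among or below the chow livers. No pair of diets passed the test for Cyp4a31. Counts of Cyp4a31 ran from 0 to 318 per library with a median of 46, so that it is the member with the least precise values.

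**Figure D1:**
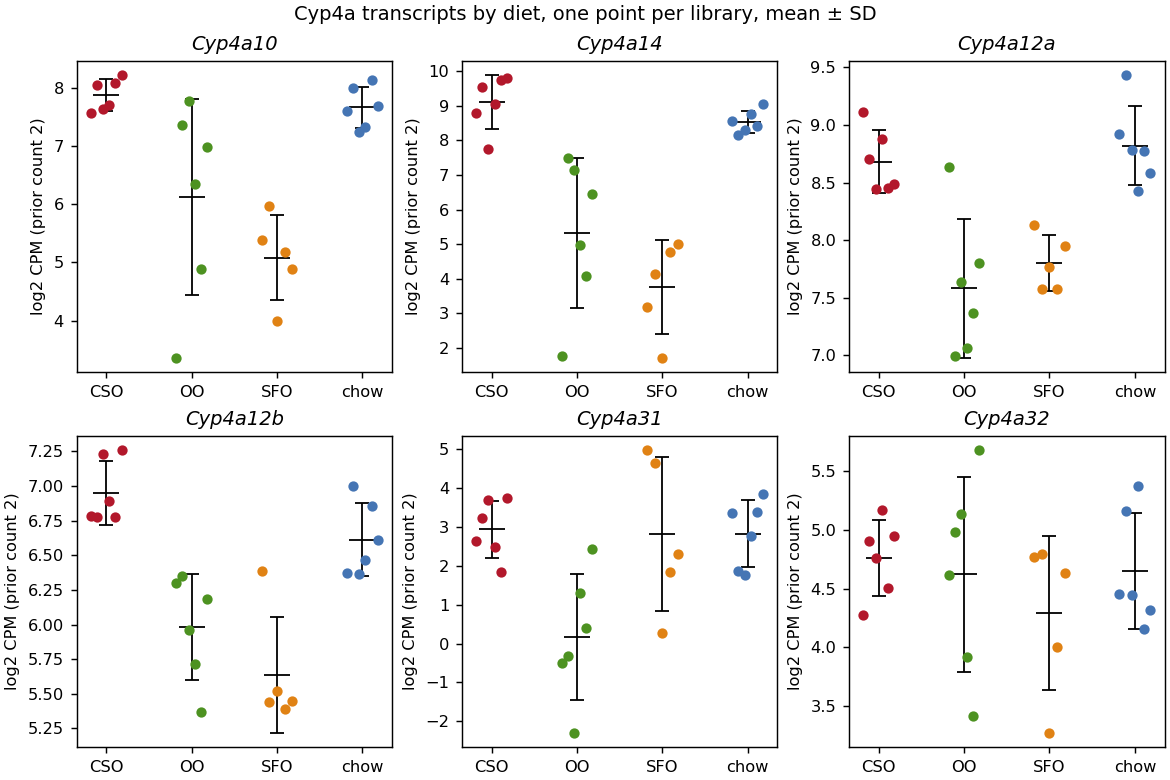
Level of each Cyp4a gene in log2 CPM (vertical axis, prior count 2) by diet (horizontal axis), with 1 point per library and the mean ± SD of the log2 values in black. The SFO points of Cyp4a14 and Cyp4a10 lie below all CSO and chow points, the OO points of these genes are widely spread, and the Cyp4a32 points overlap across the 4 diets.

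Against chow, the SFO livers had lower levels of the 4 abundant members. Cyp4a14 fell by 4.43 ± 0.81 on the log2 scale (SE, adjusted p = 0.00668), which is 21.6-fold lower in SFO, and Cyp4a10 fell by 2.49 ± 0.54 (adjusted p = 0.0288), 5.61-fold lower. Cyp4a12a fell by 1.04 ± 0.22 (adjusted p = 0.00645), 2.06-fold lower, and Cyp4a12b fell by 0.94 ± 0.24 (adjusted p = 0.0378), 1.92-fold lower. These are values of edgeR's robust quasi-likelihood F test with Benjamini-Hochberg adjustment over all 11971 genes, as are all adjusted p-values below unless another source is named. Of the 6 members 4 were called lower and 0 higher, beside 0.342% of all tested genes called lower in SFO. The median log2 fold change of the 6 was -0.99, and that of all genes 0.01. Neither Cyp4a31 (0.72 ± 0.83, adjusted p = 0.945, 95% interval -0.95 to 2.39) nor Cyp4a32 (-0.33 ± 0.41, adjusted p = 0.958, interval -1.15 to 0.49) passed the test, and their intervals do not show that they stayed level.

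The SFO livers did not overlap with the chow livers for 3 members, Cyp4a10, Cyp4a14 and Cyp4a12a, beside 0.911% of all genes that lay wholly lower in SFO. The calls of Cyp4a14 and Cyp4a12a held with each single library left out, while limma voom did not call Cyp4a14 (-5.11 ± 1.254, adjusted p = 0.0588). The call of Cyp4a10 was lost without any 1 of 6 libraries (SFO 1, 3, 5 or 6, chow 2 or 5; adjusted p up to 0.0992) and that of Cyp4a12b without any 1 of 8 (SFO 2, 3, 5 or 6, chow 2, 4, 5 or 6; up to 0.147). Without the 4 libraries with Acta1 above 100 CPM, which leaves 3 chow libraries, 1 of the 6 members was called (Cyp4a12a, log2 fold change -1.20 ± 0.25, adjusted p = 0.0108). Over all genes 34 were called there, in place of 100. The fold changes of the members moved little in that fit, with -4.49 ± 0.96 for Cyp4a14 (adjusted p = 0.0837), -2.55 ± 0.65 for Cyp4a10 (0.265) and -0.99 ± 0.30 for Cyp4a12b (0.323). In the authors' deposited table of this comparison, turned so that positive means higher in SFO, the same 4 members were called, with -4.40 for Cyp4a14 (adjusted p = 3.99e-08) and -2.47 for Cyp4a10 (0.000192).

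In OO livers 1 of the 6 members was called against chow. Cyp4a12a fell by 1.16 ± 0.21 on the log2 scale (adjusted p = 0.000852), 2.24-fold lower in OO, beside 0.919% of all genes called lower and 2.64% called in either direction. The median log2 fold change of the 6 members was -1.07, and that of all genes 0.07. Cyp4a14 had a larger fold change that did not pass the test, at -2.30 ± 0.68 (adjusted p = 0.0724, 95% interval -3.72 to -0.88). For Cyp4a31 the value was -2.29 ± 0.84 (adjusted p = 0.123), for Cyp4a10 -0.98 ± 0.48 (0.327), for Cyp4a12b -0.61 ± 0.22 (0.121) and for Cyp4a32 0.08 ± 0.39 (0.951). Every OO liver was below every chow liver for 2 members, Cyp4a14 and Cyp4a12b, beside 0.777% of all genes. The number of calls rested on the method: DESeq2's Wald test called 4 members, with Cyp4a14 (adjusted p = 0.0124), Cyp4a12b (0.0492) and Cyp4a31 (0.0428) added to Cyp4a12a, and limma voom called Cyp4a12a and Cyp4a10 (0.0276). Over all genes DESeq2 called 686 and limma voom 116, in place of 316. The voom fold changes were larger, at -1.90 ± 0.43 for Cyp4a10 and -3.61 ± 0.89 for Cyp4a14 (adjusted p = 0.0596). The authors' deposited table called Cyp4a12a (-1.17, adjusted p = 2.83e-05), Cyp4a14 (-2.30, 0.0124) and Cyp4a31 (-2.32, 0.0443), with Cyp4a12b at an adjusted p of 0.0506. Without OO 6, Cyp4a31 was called as well (-3.12, adjusted p = 0.0468), which makes 2 members. Of 10 skeletal muscle markers 9 were called lower in OO than in chow, and without the Acta1 libraries Cyp4a12a was still called (-1.33 ± 0.24, adjusted p = 0.00313).

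In CSO livers 0 of the 6 members were called against chow, beside 0.409% of all genes called in either direction. edgeR's unadjusted p was 0.141 for Cyp4a12b and larger for the other 5, and neither DESeq2 nor limma voom called a member. The fold changes were 0.69 ± 0.65 for Cyp4a14 (95% interval -0.66 to 2.05), 0.20 ± 0.48 for Cyp4a10 (-0.80 to 1.20), -0.15 ± 0.20 for Cyp4a12a (-0.56 to 0.25) and 0.33 ± 0.22 for Cyp4a12b (-0.11 to 0.78), each with an adjusted p of 0.9996. The intervals are narrow for the 2 Cyp4a12 genes and wide for Cyp4a14, for which 4 of the 6 CSO livers were above all chow livers and 1 (CSO 3, at 217 CPM) was below them all. Cyp4a31 (0.07 ± 0.79) and Cyp4a32 (0.06 ± 0.39) were near 0 with intervals of -1.53 to 1.66 and -0.71 to 0.84. The comparisons of SFO, OO and CSO with chow share the 6 chow libraries, so their values are set side by side here and no likeness between them is tested.

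**Figure D2:**
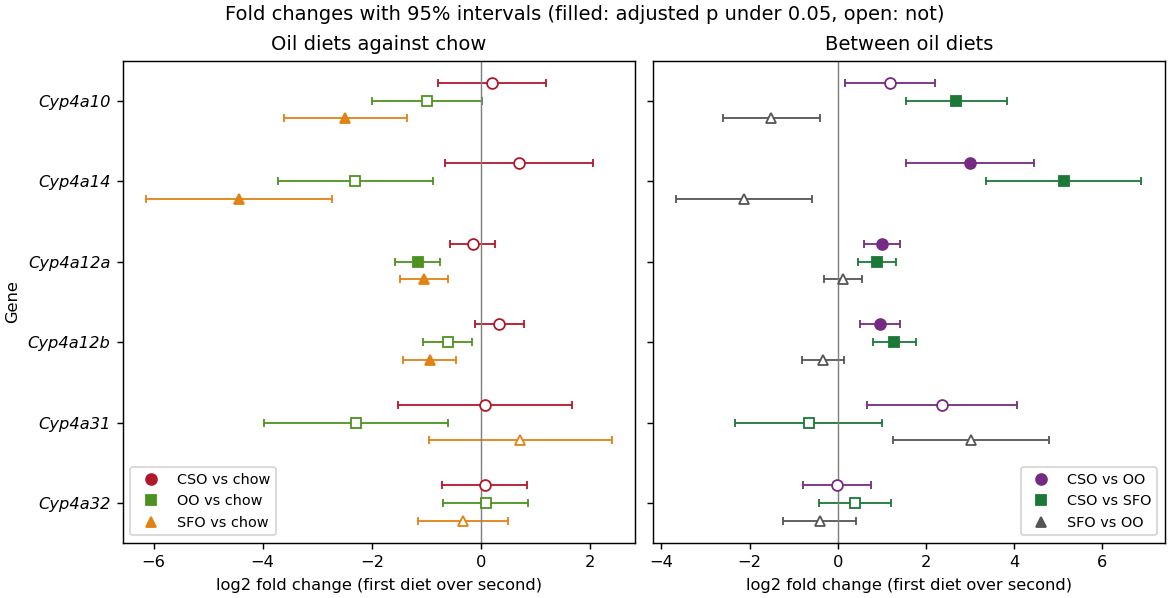
Log2 fold change of each Cyp4a gene (horizontal axis, first diet over second) with its 95% interval, for the oil diets against chow on the left and between oil diets on the right, filled where the adjusted p is under 0.05. On the left, 4 genes are filled for SFO, 1 (Cyp4a12a) for OO and 0 for CSO; on the right, 3 are filled for CSO over OO, 4 for CSO over SFO and 0 for SFO over OO.

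Between the oils, the CSO livers stood above the SFO livers for the 4 abundant members, with 34.8-fold higher Cyp4a14. The log2 fold change of CSO over SFO was 5.12 ± 0.84 for Cyp4a14 (adjusted p = 0.00357), 2.69 ± 0.55 for Cyp4a10 (0.0253), 1.28 ± 0.24 for Cyp4a12b (0.00226) and 0.89 ± 0.22 for Cyp4a12a (0.0448). That is 4 of 6 called higher in CSO, beside 0.284% of all genes, with a median of 1.08 for the members and -0.03 for all genes. For these 4 genes every CSO liver was above every SFO liver, beside 1.17% of all genes. Cyp4a31 (-0.66 ± 0.83, adjusted p = 0.953) and Cyp4a32 (0.39 ± 0.41, 0.941) did not pass.

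The calls of Cyp4a14 and Cyp4a12b in CSO over SFO held with each single library left out. The call of Cyp4a10 was lost without any 1 of 6 libraries (CSO 5 or 6, SFO 1, 3, 5 or 6; adjusted p up to 0.0954). That of Cyp4a12a was lost without any 1 of 15 libraries (each of the 6 CSO, SFO 2, 3, 5 or 6, OO 3 or 6, chow 1, 3 or 5; up to 0.190). Since the clock score was highest and least spread in CSO, the comparison was also fitted with the score as a covariate. Then Cyp4a14 was still called at 4.95 ± 0.97 (adjusted p = 0.0344), and Cyp4a10 (2.44 ± 0.62, 0.165), Cyp4a12b (1.15 ± 0.28, 0.0555) and Cyp4a12a (0.97 ± 0.25, 0.112) were not, though their fold changes were close to those without the score. Without the Acta1 libraries Cyp4a14 (5.19 ± 0.95, 0.0242) and Cyp4a12b (1.30 ± 0.27, 0.0107) were called, and Cyp4a10 (2.73 ± 0.61, 0.0993) and Cyp4a12a (0.78 ± 0.22, 0.164) were not. With DESeq2's size factors in edgeR Cyp4a12a was not called either (0.87 ± 0.21, 0.0537).

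CSO livers also stood above OO livers, for 3 of the 6 members, beside 0.251% of all genes called higher in CSO. The log2 fold change of CSO over OO was 2.996 ± 0.70 for Cyp4a14 (adjusted p = 0.0406, 7.98-fold higher in CSO), 1.01 ± 0.20 for Cyp4a12a (0.00625, 2.01-fold) and 0.95 ± 0.23 for Cyp4a12b (0.0204, 1.93-fold). The median over the members was 1.095, and over all genes -0.08. All CSO livers were above all OO livers for 2 members, Cyp4a14 and Cyp4a12b, beside 0.802% of all genes. Cyp4a31 (2.36 ± 0.84, adjusted p = 0.148), Cyp4a10 (1.18 ± 0.48, 0.239) and Cyp4a32 (-0.02 ± 0.39, 0.990) did not pass. DESeq2's Wald test called Cyp4a31 as well (adjusted p = 0.0473), and limma voom called Cyp4a10, with a larger fold change of 1.998 ± 0.42 (0.0187).

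The call of Cyp4a12a in CSO over OO held with each single library left out, while that of Cyp4a12b was lost without CSO 3 or CSO 6 (adjusted p up to 0.0709). Cyp4a14 was close to the threshold: its call was lost without any 1 of 13 libraries (any of the 6 chow libraries, CSO 1, 2, 4, 5 or 6, OO 4 or 6; up to 0.0860), while its fold change stayed between 2.74 and 3.45. A fit to the CSO and OO libraries alone did not call it (2.997 ± 0.83, adjusted p = 0.178). With the clock score as a covariate 1 member was called (Cyp4a12a, 1.11 ± 0.26, adjusted p = 0.0438), beside 2.90 ± 0.76 for Cyp4a14 (0.114) and 0.81 ± 0.27 for Cyp4a12b (0.169). Without the Acta1 libraries, too, 1 member was called (Cyp4a12a, 0.91 ± 0.21, 0.0365), with 3.07 ± 0.80 for Cyp4a14 (0.134) and 0.98 ± 0.26 for Cyp4a12b (0.0743).

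Between SFO and OO 0 of the 6 members were called, beside 1.06% of all genes in either direction. The members pointed in different directions: the log2 fold change of SFO over OO was -2.13 ± 0.74 for Cyp4a14 (adjusted p = 0.167), -1.50 ± 0.52 for Cyp4a10 (0.169) and 3.01 ± 0.88 for Cyp4a31 (0.0709). edgeR's unadjusted p was under 0.05 for these 3 (0.00926, 0.00947 and 0.00131). For Cyp4a12a the value was 0.12 ± 0.21 (95% interval -0.31 to 0.55), for Cyp4a12b -0.33 ± 0.24 (-0.80 to 0.15) and for Cyp4a32 -0.41 ± 0.41 (-1.24 to 0.41). DESeq2's Wald test called 2 members, Cyp4a31 higher in SFO (adjusted p = 0.00867) and Cyp4a14 lower (0.0485), and limma voom called 0. Over all genes DESeq2 called 440 and limma voom 9, in place of 127. Without OO 1, Cyp4a10 was called (adjusted p = 0.0247), and without OO 6, Cyp4a31 was (3.85, adjusted p = 0.0313).

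The make-up of the Cyp4a pool was also described by diet. Cyp4a14 gave 41.0 ± 11.6% of the Cyp4a tags in CSO livers (SD, n = 6), 14.1 ± 10.9% in OO (n = 6), 4.95 ± 3.54% in SFO (n = 5) and 32.3 ± 8.05% in chow (n = 6). Cyp4a12a gave 30.3 ± 8.62% in CSO, 45.6 ± 20.7% in OO, 62.2 ± 8.20% in SFO and 39.0 ± 7.19% in chow. It was the largest share in each of the 5 SFO livers, at 52.1% or more. Cyp4a10 gave 16.9 ± 2.23% in CSO, 20.5 ± 11.7% in OO, 10.1 ± 4.45% in SFO and 17.4 ± 3.19% in chow. There were 2.47 ± 0.74 Cyp4a14 tags for each Cyp4a10 tag in CSO livers, 0.617 ± 0.275 in OO, 0.506 ± 0.396 in SFO and 1.93 ± 0.66 in chow. The lowest ratio was 1.089 in CSO and 1.12 in chow, and the highest 1.094 in OO and 1.08 in SFO. Of the CSO and chow ranges against those of OO and SFO, only CSO and OO met, at their ends. These shares and ratios are descriptions from the same counts as above and were not tested. The shares and ratios also carry the uncertainty of the separate counts of the members other than Cyp4a14.

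**Figure D3:**
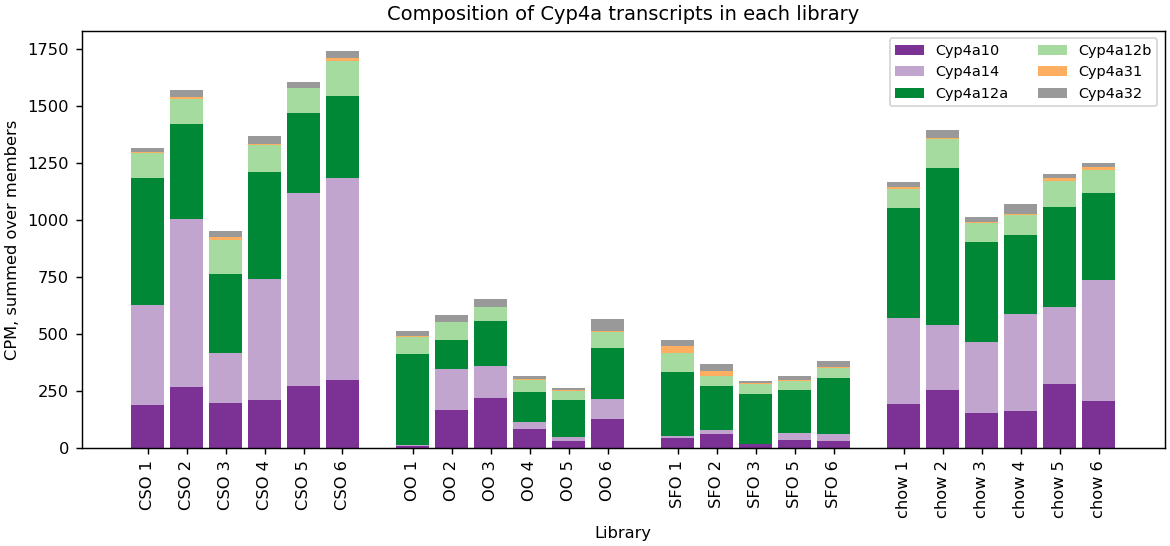
CPM summed over the 6 Cyp4a genes (vertical axis) in each library (horizontal axis, grouped by diet), with a colour for each gene. The bars reach 953 to 1742 CPM in CSO livers, 263 to 655 CPM in OO, 293 to 473 CPM in SFO and 1012 to 1396 CPM in chow, and Cyp4a12a makes up most of each SFO bar.

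From liver to liver, the correlation of Cyp4a10 with Cyp4a14 was positive within CSO and OO and negative within chow. Neither these values by diet nor their difference was tested, only the value over all diets. Over 23 libraries, as deviations of log2 CPM from the diet mean, Pearson's r was 0.858 (p = 0.00059, 2-sided permutation within diets with 100000 resamples; adjusted p = 0.00885 over 15 pairs of members). Spearman's rho was 0.597 (permutation p = 0.0150, adjusted p = 0.225). The 2 libraries farthest from the overall median log2 CPM of Cyp4a10 were OO 1 and SFO 3. They were picked by level, not by deviation from the diet mean. Without them r was 0.659 (permutation p = 0.0250, adjusted p = 0.231), so the adjusted call was lost. Within diets of 6 livers r was 0.830 in CSO, 0.980 in OO and -0.255 in chow, and with 5 livers none is given for SFO. The OO libraries carry the widest range: OO 1 and OO 5 were the lowest for both genes and OO 2 and OO 3 the highest. For the other 14 pairs no r passed after adjustment, with values between -0.489 (Cyp4a14 with Cyp4a12a) and 0.490 (Cyp4a12b with Cyp4a32). The close copies Cyp4a12a and Cyp4a12b had r = 0.343 (permutation p = 0.168), and Cyp4a10 had r = 0.189 with its copy Cyp4a31 (permutation p = 0.530).

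The genes whose deviations from the diet means were most like those of Cyp4a10, among 9446 genes over the 23 libraries, were Aox1 (an aldehyde oxidase, r = 0.83), Eci2 (a peroxisomal enoyl-CoA isomerase, r = 0.83) and Gtf3c1 (a subunit of an RNA polymerase III factor, r = 0.81). For Cyp4a14 they were Cyp2c38 (another P450, r = 0.85), Rdh16 (a retinol dehydrogenase, r = 0.82) and Surf1 (a cytochrome oxidase assembly factor, r = 0.80). For the other 4 members the highest values were lower, from 0.65 to 0.74, with Mrps22, Ugdh and Podn for Cyp4a12a, Tmem184b, Yaf2 and Cc2d2a for Cyp4a12b, Pomt2, Tsen15 and Tmem82 for Cyp4a31, and Adpgk, Igtp and Wbp2 for Cyp4a32. These are descriptions, since the libraries share depth and composition and the highest of many values is high by choice.

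The other genes of the route were read from lists. Of the other Cyp4 genes (Cyp4b, Cyp4f and Cyp4v; 6 tested), 0 were called in SFO or CSO against chow, and in OO 1 was higher, Cyp4f14, a leukotriene omega-hydroxylase, at 0.60 ± 0.14 (427 ± 92.2 CPM in OO, 281 ± 17.2 CPM in chow, adjusted p = 0.0150). Their median log2 fold change was -0.06 in SFO against chow and -0.01 in OO, beside 0.01 and 0.07 over all genes. Of 11 electron donors and alcohol and aldehyde dehydrogenases, 0 were called in SFO against chow, with a median of -0.07. In CSO against chow 2 of the 11 were higher, beside 0.409% of all genes called in either direction. They were Aldh3a2, the fatty aldehyde dehydrogenase, at 0.84 ± 0.17 (adjusted p = 0.00482), and Por, the P450 oxidoreductase, at 0.77 ± 0.19 (0.0428). In CSO over SFO 3 of the 11 were higher, beside 0.284% of all genes called higher. These were Aldh3a2 at 1.39 ± 0.18 (668 ± 80.1 CPM in CSO, 256 ± 63.3 CPM in SFO), Por at 1.06 ± 0.20 and the alcohol dehydrogenase Adh1 at 0.69 ± 0.13. In CSO over OO 1 of the 11 was higher, Por at 1.28 ± 0.19, beside 0.251% of all genes called higher. In the same comparison 1 was lower, Cyb5b, a cytochrome b5 gene, at -0.76 ± 0.15 (adjusted p = 0.00262). Cyb5b was also the 1 of the 11 called in OO against chow, higher at 0.61 ± 0.15 (0.0158), where the median of the 11 was 0.31. There 2.64% of all genes were called in either direction. In SFO against OO 4 of the 11 were lower and 0 higher, beside 0.794% of all genes called lower. The 4 were Aldh3a2 (-1.11 ± 0.18), Cyb5b (-0.87 ± 0.15), Adh1 (-0.59 ± 0.13) and Aldh2 (-0.45 ± 0.12).

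Of 18 genes of peroxisomal oxidation, 3 were lower and 0 higher in SFO against chow, beside 0.342% of all genes called lower. Their median log2 fold change was -0.21, beside 0.01 over all genes. The 3 called genes were Ehhadh, the bifunctional enzyme needed to shorten dicarboxylic acids, at -0.91 ± 0.17 (adjusted p = 0.00109), Acaa1b, a peroxisomal thiolase, at -1.04 ± 0.22 (0.0140), and Pex11a, a peroxisome division factor, at -0.95 ± 0.23 (0.0215). In OO against chow Pex11a was lower (-0.81 ± 0.21, 0.0296) and Scp2, a sterol carrier and thiolase gene, was higher (0.43 ± 0.11, 0.0190). There 2.64% of all genes were called in either direction. In CSO over SFO 5 of the 18 were higher and 0 lower, beside 0.284% of all genes called higher. In SFO against OO 3 were lower and 0 higher, beside 0.794% of all genes called lower. Of 30 other PPAR alpha targets, 1 was lower in SFO against chow, Acot1, a cytosolic acyl-CoA thioesterase, at -2.73 ± 0.55 (8.64 ± 5.24 CPM in SFO, 57.4 ± 11.2 CPM in chow, adjusted p = 0.00477). The median of the 30 was -0.29 in SFO, 0.02 in OO and 0.19 in CSO against chow. Acot1 was also the 1 called in OO (-1.98 ± 0.50, 0.0261), and in CSO it was Cpt1a, the carnitine palmitoyltransferase of the mitochondrial outer membrane, that was higher (0.55 ± 0.14, 0.0428). Over all genes 2.64% were called in OO and 0.409% in CSO against chow, in either direction. In CSO over SFO 5 of the 30 were higher, with Acsl1 at 0.72 ± 0.12, Vnn1 at 1.55 ± 0.30 and Acot1 at 2.75 ± 0.55 those of the smallest adjusted p.

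**Figure D4:**
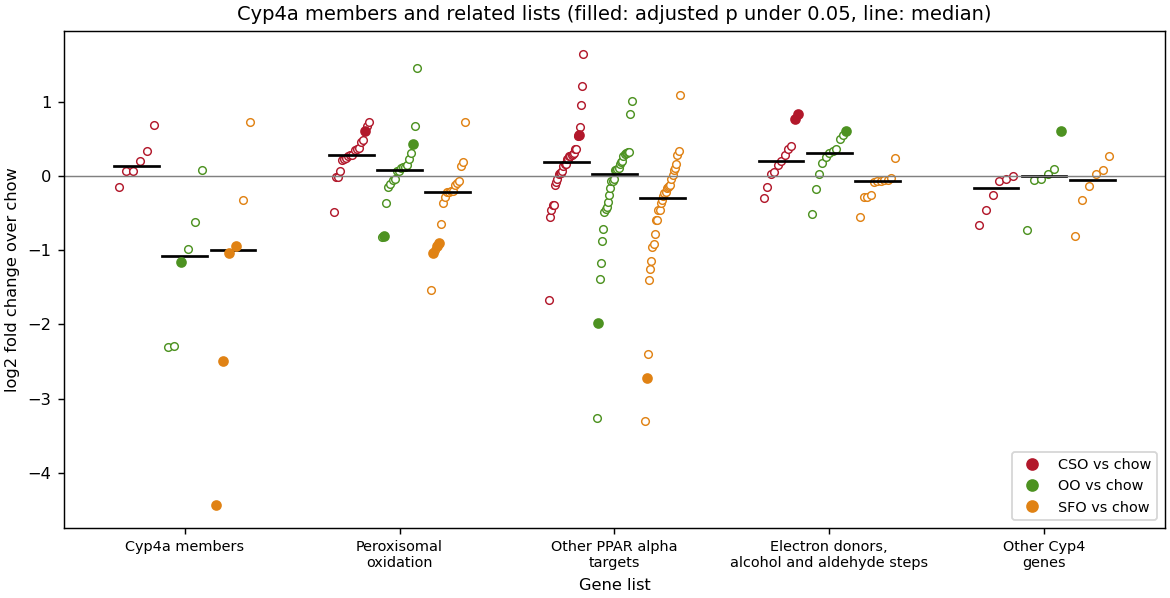
Log2 fold change over chow (vertical axis) of the 6 Cyp4a genes and of the tested genes of 4 lists (horizontal axis), with a colour for each oil diet, filled points for an adjusted p under 0.05 and a black line at the median of each list. The lowest points of the Cyp4a genes are Cyp4a14 (-4.43) and Cyp4a10 (-2.49) in SFO, and the medians of the 4 lists lie between -0.29 and 0.31.

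Cyp4a12a is male-biased in mice, and other sex-biased genes that depend on growth hormone were read beside it. Of 17 male-biased genes, 0 were called in OO against chow and 1 was higher in SFO, Mup20, a major urinary protein, at 0.76 ± 0.18 (adjusted p = 0.0303). In CSO against chow 2 of the 17 were lower, the elongase Elovl3 (-1.71 ± 0.36, 0.0339) and the glucuronosyltransferase Ugt2b1 (-0.51 ± 0.12, 0.0428), beside 0.409% of all genes called in either direction. Of the female-biased list only 3 of 15 genes were tested, and 1 was called, Cyp3a44, lower in SFO (-3.89 ± 0.88, 0.0126) and in OO (-4.60 ± 0.85, 0.000937). In CSO against chow Cyp3a44 was at -2.83 ± 0.78 (adjusted p = 0.107), with 3.93 ± 1.64 CPM in CSO and 27.9 ± 8.99 CPM in chow. Neither CSO against SFO (adjusted p = 0.860) nor CSO against OO (0.245) passed for Cyp3a44. Of 18 genes of arachidonic acid supply and its P450 products, 2 were higher and 2 lower in SFO against chow, beside 0.835% of all genes called in either direction. In OO against chow 5 were higher and 2 lower, beside 2.64%, and in CSO 2 were higher and 2 lower, beside 0.409%. Fads2, a fatty acid desaturase, was higher in CSO than in chow (1.46 ± 0.16, adjusted p = 6.78e-08), and Cyp2c29, a P450 that makes epoxides of arachidonic acid, was lower (-1.32 ± 0.15, 6.78e-08). Cyp2c29 was lower in SFO than in chow too (-1.63 ± 0.16, 2.04e-09). Its mean was 774 ± 160 CPM in OO and 1272 ± 127 CPM in chow. The elongase Elovl5 was higher than in chow in both SFO (0.70 ± 0.14) and OO (1.06 ± 0.14), and the epoxide hydrolase Ephx1 was lower in both (-1.52 ± 0.18 in SFO and -1.25 ± 0.17 in OO). Of 14 clock genes, 0 were called in SFO or OO against chow, and 1 in CSO, Nr1d1, a repressor of the clock, lower at -1.01 ± 0.24 (0.0339).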

How the data were processed

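The authors deposited raw counts per gene for 23 libraries and, for each oil, a table with log2 fold changes of chow over oil, their log2 standard errors, a score (the test statistic), p-values and a mean normalised signal that was not used; signs were turned here. Per the submitters' processing notes, Trimmomatic, STAR 2.7.1a, HTSeq 0.9.1, DESeq2, DESeq and mm39 were used. The strand setting and the treatment of reads that match several genes are not given in the sources used here. Of 24 labelled samples, SFO_4 was left out by the submitters, who describe it as an extreme outlier that may be contaminated. The smallest total count of a gene in the table is 51, and within diets (55 pairs) no library was a duplicate of another.

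In R 4.3.3 with edgeR 4.0.16, 11971 genes passed filterByExpr (99.9% of all counts). TMM scaling was used, and 1 model over the 4 diets, with no other term, gave 6 contrasts by the robust quasi-likelihood F test. P-values were adjusted by the Benjamini-Hochberg method within each contrast over the genes tested, and 0.05 was the threshold. For log2 CPM the prior count was 2. DESeq2 1.42.0 and limma 3.58.1 served as alternatives, and figures were drawn with matplotlib 3.10.9. The procedure was tested on simulated counts.

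The 6 genes, the lists and several alternatives were chosen with earlier results of these data known. Named from each list were up to 3 called genes per comparison with the smallest adjusted p, and for each member the 3 genes most like it (mean log2 CPM no lower than 1), predicted genes and pseudogenes left out. The text names only part of the genes that met this rule, and Aldh2 in SFO against OO is named beyond it. Promoter and protein sequences are not shown.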

Additional observations from a re-analysis of the deposited data

Results flagged for a closer look

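Within diet groups, 28 sets of library values (each member and their sum, in each of the 4 diets) were checked for a single library far from the others, and 2 stood out. Chance alone marks about 1 group in 20. Cyp4a12a was at 397 CPM in OO 1, where the next highest OO library had 223 CPM. The gap was 0.644 of the range of the group, above the critical share of 0.625 for 6 libraries. Without OO 1 the fall of Cyp4a12a in OO against chow was larger, at -1.45 on the log2 scale. In the same library Cyp4a14 and Cyp4a10 were at their lowest in OO, at 3.22 and 10.1 CPM. Cyp4a12b was at 83.3 CPM in SFO 1, where the next highest SFO library had 45.8 CPM. That gap was 0.904 of the range, above 0.710 for 5 libraries. SFO 1 also had the highest Cyp4a31 level of all libraries, at 31.2 CPM.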

How the results depend on the processing

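Counts of called members changed by over 1.5 times in these cases, and the cause was not tested. The number of calls over all genes changed as well and is given beside them. For OO against chow, 2 were called with library totals, 4 with DESeq2 and 2 with limma voom, in place of 1. The calls over all genes were 224, 686 and 116, in place of 316. For CSO over OO, 1 was called without the Acta1 libraries and 1 with the clock score, in place of 3, beside 40 and 41 of all genes. A fit without the filter on low counts called the same 3 members, beside 126 of all genes. For CSO over SFO, 2 were called without the Acta1 libraries and 1 with the clock score, in place of 4, beside 39 and 27 of all genes. Here the fit without the filter on low counts called the same 4 members, beside 59 of all genes. For SFO against chow, 1 was called without the Acta1 libraries in place of 4, beside 34 of all genes in place of 100. For SFO against OO, 2 were called with DESeq2 in place of 0, beside 440 of all genes in place of 127. No pair of members was correlated after adjustment (0, in place of 1) without the 2 libraries farthest from the overall median of the first gene of each pair. With each library left out, counts ran from 1 to 2 (OO against chow), 2 to 4 (SFO against chow), 1 to 3 (CSO over OO), 2 to 4 (CSO over SFO), 0 to 1 (SFO against OO) and 0 to 0 (CSO against chow).

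Changes of sign touched members that were not called. In CSO against chow, the clock score gave log2 fold changes of -0.045 for Cyp4a10, -0.17 for Cyp4a31 and -0.21 for Cyp4a32, and leaving out the Acta1 libraries -0.069 for Cyp4a31. Cyp4a32 in OO against chow was -0.13 with library totals and -0.19 with voom. In CSO over OO it was 0.15, 0.29, 0.033 and 0.067 with library totals, voom, the replicate block and without the Acta1 libraries. Voom gave Cyp4a31 -0.61 in SFO against chow and 0.73 in CSO over SFO. With each library left out, Cyp4a31 and Cyp4a32 in CSO against chow ran from -0.11 to 0.31 and from -0.028 to 0.24, and Cyp4a32 from -0.17 to 0.26 in OO against chow and from -0.19 to 0.23 in CSO over OO. The 2 libraries farthest from the overall median of the first-named gene were also left out. Then r was 0.065 for Cyp4a10 with Cyp4a12a, -0.075 for Cyp4a10 with Cyp4a31, 0.11 for Cyp4a14 with Cyp4a12b and -0.38 for Cyp4a14 with Cyp4a31.

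Same-numbered libraries did not vary together (0 of the pairs in any comparison had a correlation over 0.1). With the replicate number as a block, 3 members were called in SFO against chow (Cyp4a10 lost, log2 fold change -2.55, adjusted p = 0.0740), 2 in CSO over OO (Cyp4a14 lost, 3.13, 0.0807) and 3 in CSO over SFO (Cyp4a10 lost, 2.74, 0.0644), and no call changed elsewhere. Cyp4a31 had a median of 46 counts per library, so its counting error is the largest of the members in relative terms, and its spread among SFO libraries (11 to 318 counts) was wider than counting error.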
